A study of Homo sapiens with 6 samples.

Results

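DEFB1, FGL2, SIRPD, ECM1 and LILRB4 are 5 genes of secreted and surface proteins, 5 of the 13002 genes measured in OCI-AML2, a long-established line of human acute myeloid leukaemia cells. They were chosen from measured values: each had a higher RPKM (reads scaled by gene length and library depth) in all 4 libraries with a hairpin against TAZ than in both control libraries. Their levels against the control are therefore a description and carry no test. Every group was infected with a lentivirus carrying a short hairpin RNA and kept for 3 days under puromycin (2.0 µg/mL) to select infected cells. The 3 groups carry a hairpin with no stated target (the control), shRNA1 against TAZ or shRNA2 against TAZ, with libraries A and B in each. The control is a scramble hairpin in the labels, and its columns in the deposited tables bear the name GFP. The labels describe the line as an engineered leukaemic stem cell line from blood, and leave unsaid whether the letters mark separate cultures. Any p-value thus sets a difference between groups only against the spread of these libraries, and that spread may be technical.

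The targeted gene, TAZ, encodes tafazzin, which remodels the mitochondrial lipid cardiolipin. It measured 11.3 (A) and 11.9 (B) RPKM under the control hairpin, 4.02 and 4.10 under shRNA1, and 1.47 and 2.13 under shRNA2, lower in all 4 knockdown libraries. Libraries held between 18809913 and 20969743 reads in listed genes. The label of the cells was checked against marker genes: SPI1 and CEBPA, transcription factors of myeloid cells, lay between 117 and 145 RPKM and between 103 and 147 RPKM in the 6 libraries, and 9 of 12 myeloid markers had a mean of at least 1 RPKM. ANPEP and CSF2RA, also myeloid markers, were not among the listed genes. The summed myeloid markers lay at 1023 to 1195 RPKM in the control, 5214 to 5768 with shRNA1 and 4005 to 4804 with shRNA2, most of it LYZ, and their part in the members' levels was not tested. MPO, a granule enzyme of the same list, went the other way, with 11.2 (A) and 10.1 (B) RPKM under the control hairpin, 5.16 and 4.63 under shRNA1, and 1.02 and 1.49 under shRNA2. None of the 5 epithelial and 4 erythroid markers was listed. Of the T cell markers only CD3D was listed, at 0 to 0.981 RPKM. The summed B cell markers lay between 1.31 and 5.00 RPKM. Of 4 NK cell markers, KLRD1 and GNLY were not listed, and NKG7 and NCAM1 had a sum of 34.2 to 50.1 RPKM over the libraries.

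The genes fall into different branches of myeloid immunity. DEFB1 encodes beta-defensin 1, a small cationic peptide that damages microbial membranes and is best known from epithelia, though monocytes make it too. FGL2 encodes fibroleukin, which cleaves prothrombin when held on the cell surface and acts as a suppressive ligand of Fc receptors when secreted. ECM1 encodes a secreted glycoprotein that binds matrix components, and is known from skin as well as from T helper cells, so the word immune covers only part of its biology. SIRPD belongs to the signal regulatory proteins, a family of immunoglobulin-domain receptors whose member SIRPA binds CD47 and restrains phagocytosis. SIRPD itself is predicted to be secreted. LILRB4 is an inhibitory receptor of monocytic cells that recruits phosphatases through tyrosine motifs in its tail.

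The sequences around the gene starts are shown for 4 of the 5 genes, from the RefSeq promoter table (build GRCh38.p14). Each runs from 250 bases before to 50 bases after the start. DEFB1 was left out by a rule on its chromosome. The genes were chosen for being higher in the knockdown libraries, and shared control was not tested. Capitals mark matches, on either strand, to GAGGAA (the core bound by the myeloid factor PU.1), TTGCNNAA (C/EBP), GAAANNGAA (interferon response element core), TTCNNNGAA (STAT) and TGANTCA (AP-1). Windows are chr7:77199770-77200069 on the minus strand for FGL2, chr20:1557656-1557955 on the minus strand for SIRPD, chr1:150507859-150508158 on the plus strand for ECM1 and chr19:54662735-54663034 on the plus strand for LILRB4. They are written 5′ to 3′ along the gene.
FGL2: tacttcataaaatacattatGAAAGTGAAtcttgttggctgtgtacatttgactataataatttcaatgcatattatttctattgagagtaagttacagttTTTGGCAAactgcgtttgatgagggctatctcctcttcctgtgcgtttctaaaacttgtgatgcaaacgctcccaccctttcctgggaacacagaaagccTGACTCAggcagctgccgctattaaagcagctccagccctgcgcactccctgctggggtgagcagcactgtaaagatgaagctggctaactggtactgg
SIRPD: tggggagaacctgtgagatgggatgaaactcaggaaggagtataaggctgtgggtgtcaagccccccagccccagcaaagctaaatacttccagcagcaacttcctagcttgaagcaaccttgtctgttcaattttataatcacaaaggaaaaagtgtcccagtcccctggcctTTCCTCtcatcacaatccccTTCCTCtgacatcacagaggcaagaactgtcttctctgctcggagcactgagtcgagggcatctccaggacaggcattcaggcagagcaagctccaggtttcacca
ECM1: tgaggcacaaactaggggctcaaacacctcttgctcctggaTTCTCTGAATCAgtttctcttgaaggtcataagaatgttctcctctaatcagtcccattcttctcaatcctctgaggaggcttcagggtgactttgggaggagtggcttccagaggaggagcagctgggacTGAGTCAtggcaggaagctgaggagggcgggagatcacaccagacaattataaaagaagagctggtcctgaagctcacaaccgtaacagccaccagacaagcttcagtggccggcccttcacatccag
LILRB4: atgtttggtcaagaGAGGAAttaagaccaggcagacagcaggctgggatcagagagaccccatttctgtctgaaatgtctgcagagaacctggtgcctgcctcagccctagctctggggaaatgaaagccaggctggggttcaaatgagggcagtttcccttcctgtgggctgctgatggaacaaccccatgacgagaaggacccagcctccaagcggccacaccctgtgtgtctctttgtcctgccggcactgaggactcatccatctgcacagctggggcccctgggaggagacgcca
No motif was found in all 4 windows. FGL2 held 1 match each to C/EBP (first base at -149 from the start), the interferon response element core (-230) and AP-1 (-49). SIRPD held 2 matches to the PU.1 core, at -76 and -56, both on the strand opposite to the gene. LILRB4 held 1 match to the PU.1 core, at -236. ECM1 held 2 AP-1 matches, at -204 and -78, and a STAT match at -209 that overlaps the first of them. Of the 35116 windows in the table, 27.9% hold the PU.1 core, 10.5% the C/EBP motif, 8.11% the interferon motif, 7.66% the STAT motif and 7.71% the AP-1 motif. Among the 11637 windows of genes that passed the expression filter, the shares are 28.1%, 7.78%, 6.81%, 6.22% and 4.81% in the same order. A match is a string of letters and not a measured binding site.

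DEFB1 was the most abundant of the 5 and had the largest fold over the control with shRNA1. It measured 77.5 (A) and 46.6 (B) RPKM under the control hairpin, 426 and 372 under shRNA1, and 325 and 206 under shRNA2. Behind them are 642 (A) and 437 (B) reads for the control hairpin, 4067 and 3633 for shRNA1, and 2928 and 1918 for shRNA2. The mean was 62.0 ± 21.9 RPKM in the control (SD, n = 2), and the means of shRNA1 and shRNA2 were 6.43-fold and 4.28-fold that level. The lowest knockdown library, shRNA2 B, was 2.66 times the highest control library. In the control, DEFB1 lay at percentile 89.9 of all listed genes by RPKM, while the other members lay between percentiles 18.2 and 36.1. Its difference upward was the 5th largest of 10613 genes with shRNA1 and the 22nd largest of 10659 with shRNA2 on the log2(RPKM + 0.5) scale. Because the groups are bulk cultures, more cells that express a gene and more RNA per cell cannot be told apart.

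FGL2 was low under the control hairpin, at 3.48 RPKM in A and 2.09 in B. Under shRNA1 it reached 16.0 and 14.5 RPKM, and under shRNA2 14.1 and 8.96, all above both controls. The control mean of 2.79 ± 0.984 RPKM was exceeded 5.46-fold with shRNA1 and 4.14-fold with shRNA2. Each library held at least 181 FGL2 reads. FGL2 overlaps CCDC146 and AC007000.3, genes on the opposite strand in GENCODE 29. DEFB1 likewise overlaps GS1-24F4.2 on the strand opposite to it. AC007000.3 and GS1-24F4.2 were not among the listed genes. The strand setting of the counting is not given in the sources used here, so reads of overlapping genes cannot be told apart. CCDC146 had 0.302 and 0.266 RPKM in the control and 0.102 and 0.242 RPKM with shRNA1, far under FGL2, and its fold was 0.605 with shRNA1 and 0.637 with shRNA2.

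SIRPD was the member with the fewest reads. It measured 1.03 (A) and 0.911 (B) RPKM under the control hairpin, 5.20 and 6.71 under shRNA1, and 5.32 and 6.13 under shRNA2. The control values rest on 15 reads each, and counting error alone gives control A a 95% exact Poisson interval of 0.578 to 1.70 RPKM. The knockdown values rest on 84 to 115 reads, and the lowest of their intervals begins at 4.16 RPKM. These intervals hold counting error only. Since the same values chose the gene, the gap between them is not a test. The mean was 6.13-fold the control with shRNA1 and 5.89-fold with shRNA2. With a control mean of 0.972 ± 0.0858 RPKM, SIRPD passed the filter of a mean of at least 1 RPKM only through the knockdown libraries. On the log2(RPKM + 0.5) scale the difference was 2.12 with shRNA1, and the authors' deposited table gives a log2 fold change of 2.61.

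ECM1 measured 1.91 (A) and 1.44 (B) RPKM under the control hairpin, 7.28 and 7.24 under shRNA1, and 7.77 and 7.78 under shRNA2. Its knockdown libraries lay close together, with 334 to 348 reads each, against 76 and 65 reads in control A and B. The mean was 4.33-fold the control with shRNA1 and 4.64-fold with shRNA2.

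LILRB4 had the smallest fold of the 5. It measured 3.81 (A) and 3.34 (B) RPKM under the control hairpin, 8.21 and 8.51 under shRNA1, and 9.69 and 10.7 under shRNA2, from 264 to 840 reads. The mean was 2.34-fold the control with shRNA1 and 2.85-fold with shRNA2. Its lowest knockdown library was 2.16 times its highest control library, the narrowest margin of the members, while SIRPD had the widest at 5.03. The related receptor gene LILRA2 fell just outside the property that chose the members: its shRNA1 libraries, at 24.8 and 25.3 RPKM, lay below control A at 25.5 RPKM. The property itself is common, since 2255 of the 10660 genes whose mean over the 6 libraries reached 1 RPKM (21.2%) had all 4 knockdown libraries above both controls.

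**Figure D1:**
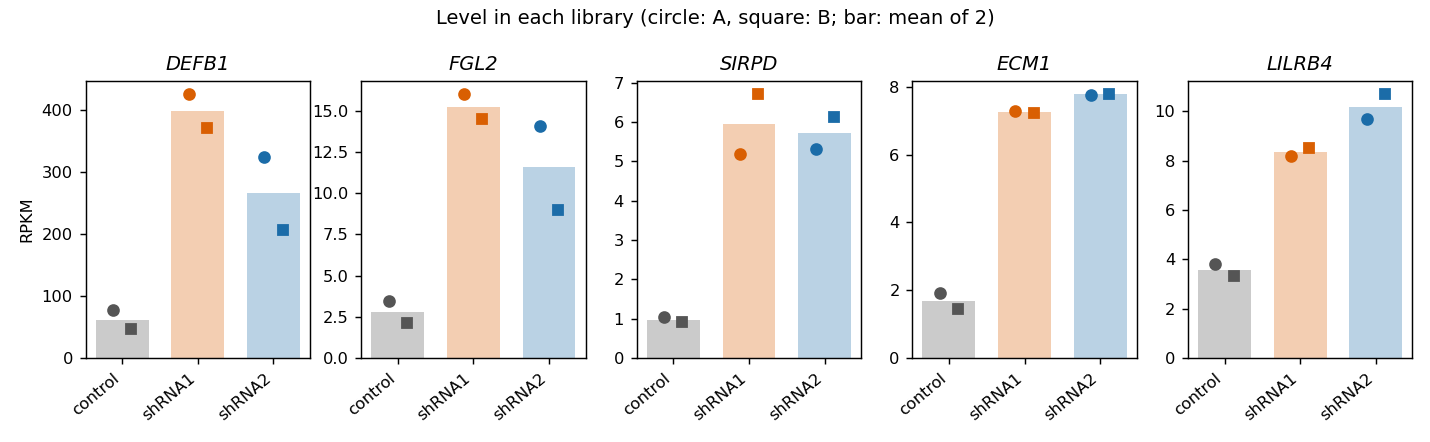
RPKM of the 5 genes (a panel each, linear axis from 0) in the control, shRNA1 and shRNA2 groups. Circles are library A, squares library B and bars the mean of 2. All 4 knockdown libraries lie above both controls in each panel, and in DEFB1 and FGL2 library A lies above library B in every group.

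The authors' deposited tables give log2 fold changes of 2.73 and 2.11 for DEFB1 with shRNA1 and shRNA2, 2.49 and 2.06 for FGL2, 2.12 and 2.23 for ECM1, and 1.22 and 1.52 for LILRB4. For SIRPD they give 2.61 and 2.57. Both comparisons share the same control libraries, so the 2 columns of values are not independent of each other.

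The choice of the genes did not use the difference of shRNA2 from shRNA1 itself. It did require both hairpins to exceed the control, which leaves out genes raised by shRNA1 or shRNA2 alone. The shares over all genes are therefore not a like-for-like background for the members. The contrast of shRNA2 against shRNA1 asks whether the 2 hairpins, which left different amounts of TAZ RNA, also left different amounts of these transcripts. DEFB1 and FGL2 had lower means with shRNA2, LILRB4 a higher one, and SIRPD and ECM1 nearly equal ones, but limma called 0 of the 5 after adjustment over all genes. At an unadjusted p under 0.05 it also marked 0 of them, against 2802 of 10660 genes (26.3%), but DEFB1 (0.0509) and LILRB4 (0.0708) came near. A filter at a mean of 5 RPKM, quantile normalization and a fit of the 4 TAZ shRNA libraries alone each gave 0 called and 1 marked. On recovered reads limma-voom called 0 and marked 1 at an unadjusted p under 0.05, and called 1096 over all genes. With the letters A and B as a replicate block, limma called 1, DEFB1, and marked 2, while it called 2396 of the 10660 genes. Over all genes, 1160 of 10660 (10.9%) differed between the hairpins, 510 higher and 650 lower with shRNA2, and TAZ was among the lower ones (log2 difference -1.0, limma adjusted p = 0.00801, but 0.0739 without shRNA1 A and 0.084 without shRNA1 B).

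DEFB1 had a log2 difference of -0.62 (SE 0.27, 95% interval -1.24 to 0.00, limma adjusted p = 0.192), with the shRNA2 mean at 0.666 of the shRNA1 mean and both shRNA2 libraries below both shRNA1 libraries. FGL2 had a difference of -0.42 (SE 0.25, interval -0.98 to 0.15, adjusted p = 0.329), and its shRNA2 libraries too lay below both shRNA1 libraries. LILRB4 had a difference of 0.27 (SE 0.13, interval -0.03 to 0.57, adjusted p = 0.233), with both shRNA2 libraries above both shRNA1 libraries. For SIRPD the difference was -0.04 (interval -0.42 to 0.33, adjusted p = 0.897), and for ECM1 0.09 (interval -0.24 to 0.43, adjusted p = 0.742). The order of group means was thus control, shRNA2, shRNA1 for DEFB1, FGL2 and SIRPD, and control, shRNA1, shRNA2 for ECM1 and LILRB4. In this fit, without a block, the knockdown groups were not separated in either order. With the letters A and B as a replicate block, DEFB1 was called lower with shRNA2 (limma adjusted p = 0.0103), in a fit that called 2396 genes in either direction. The labels do not say whether the letters pair the libraries. The interval of DEFB1 takes in a difference of over 2-fold, and those of the other 4 do not.

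**Figure D2:**
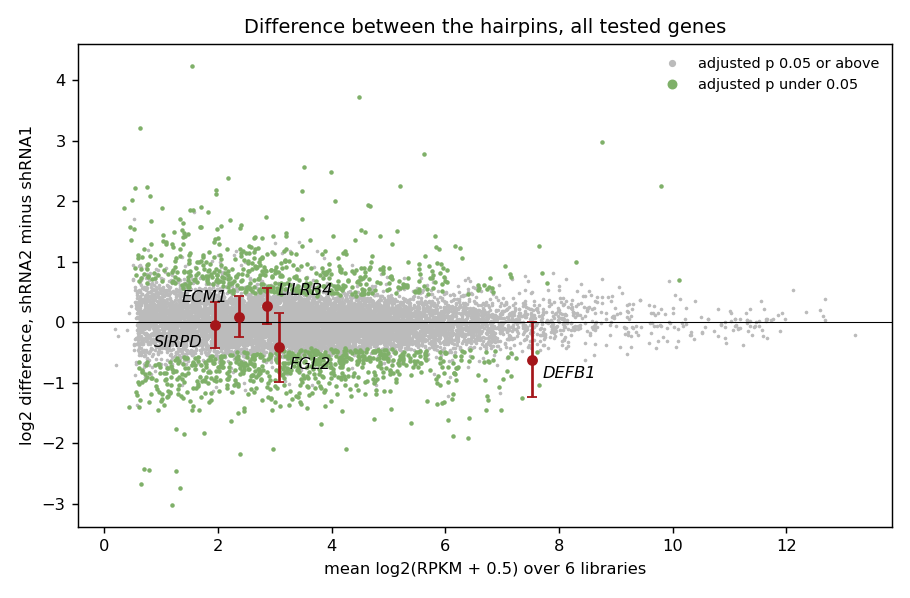
Log2 difference of shRNA2 minus shRNA1 (y axis) against the mean log2(RPKM + 0.5) over 6 libraries (x axis) for 10660 genes, with the 1160 genes at a limma adjusted p under 0.05 in green. Red points with bars are the 5 genes with 95% intervals; each interval reaches 0, to 2 decimals.

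Within each group, DEFB1 and FGL2 differed between libraries A and B by nearly the same ratio as each other. DEFB1 was 1.66 times as high in A as in B in the control, 1.15 times with shRNA1 and 1.58 times with shRNA2. For FGL2 these ratios were 1.67, 1.10 and 1.58. As a result the RPKM of DEFB1 over that of FGL2 moved little, at 22.2 and 22.3 in control A and B, 26.7 and 25.7 in the shRNA1 libraries, and 23.0 and 23.0 in those of shRNA2. By RPKM, SIRPD and LILRB4 were higher in A than in B in the control only. There the reads in A and B were nearly equal, 15 and 15 for SIRPD and 266 and 264 for LILRB4. ECM1 was 1.32 times as high in A as in B in the control and close to equal with shRNA1 (1.01) and shRNA2 (0.998). Of 10660 genes, 2646 (24.8%) were higher in A than in B in all 3 groups. What the letters stand for is not given in the labels, and their part in the levels of DEFB1 and FGL2 was not tested.

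The genes whose pattern over the 6 libraries was most like each member were found by the root mean square difference of log2(RPKM + 0.5), centred on each gene's mean, among 10660 genes. A member was the closest gene for DEFB1 and for SIRPD, and not for FGL2, ECM1 or LILRB4. FGL2 was the gene closest to DEFB1 of all (0.18), followed by CCR2 (0.21), the chemokine receptor by which monocytes leave the marrow, and LYZ (0.23), which encodes lysozyme. CCR2 (0.16), DEFB1 and LYZ (0.28) were closest to FGL2. CCR2 measured 22.7 (A) and 15.8 (B) RPKM under the control hairpin, 98.3 and 111 under shRNA1, and 75.9 and 61.5 under shRNA2, so it too was lower with shRNA2 than with shRNA1 in every library.

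ECM1 was the gene closest to SIRPD (0.17), before ARHGAP19 (0.17), which encodes a GTPase-activating protein, and AHNAK (0.21), a giant scaffold protein. IGSF6 (0.14), an immunoglobulin-superfamily receptor gene of myeloid cells, AHNAK (0.17) and SIRPD were closest to ECM1. IGSF6 measured 3.11 (A) and 2.27 (B) RPKM under the control hairpin, 9.15 and 9.35 under shRNA1, and 10.5 and 8.68 under shRNA2. No member was among the 3 genes closest to LILRB4, which were the long non-coding RNA gene FGD5-AS1 (0.06), UBA7 (0.07), the activating enzyme for the ubiquitin-like protein ISG15, and RIPK3 (0.10), a kinase of necroptosis. UBA7 measured 1.74 (A) and 1.52 (B) RPKM under the control hairpin, 4.26 and 4.42 under shRNA1, and 5.02 and 6.25 under shRNA2. RIPK3 lay at 0.524 (A) and 0.308 (B) RPKM under the control hairpin, from 18 and 12 reads. It passed the filter only through the knockdown libraries. The member nearest to LILRB4 was ECM1 (0.31), in place 293 among all genes. From the side of ECM1, LILRB4 was in place 26 and FGL2, at the same distance of 0.31, in place 24. DEFB1 lay farther from ECM1 (0.44) than LILRB4 did. These distances describe 6 libraries of 3 groups, so any gene that is low in the control and higher in both knockdown groups by a like amount comes out as similar.

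**Figure D3:**
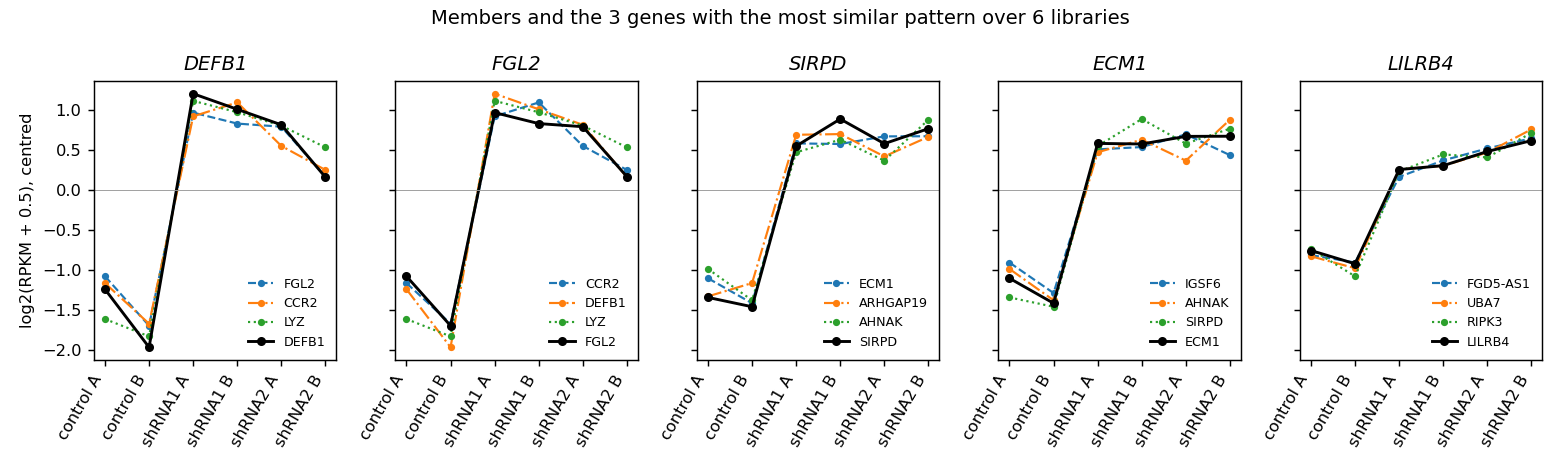
Log2(RPKM + 0.5), centred on each gene's mean (y axis), in the 6 libraries (x axis) for each of the 5 genes (black) and the 3 genes closest to it (coloured broken lines). DEFB1 and FGL2 share a step down from A to B in the control and with shRNA2, while LILRB4 has the smallest step from the control.

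The relatives of SIRPD were examined as a group. The SIRP genes lie in 1 cluster of the genome, and CD47 is the ligand of SIRPA. Of 5 genes listed (SIRPA, SIRPB1, SIRPB2, SIRPG and CD47), 4 passed the filter, and 2 rose and 0 fell with each hairpin. Where a count of 0 is given for a list in 1 direction, at most 3 genes had an unadjusted p under 0.05 and limma-voom called at most 1. Over all genes limma called 9.99% higher and 8.58% lower with shRNA1, and 8.12% higher and 7.61% lower with shRNA2. The median log2 fold change of the 4 was 0.71 with shRNA1 and 0.55 with shRNA2, against -0.00 over all genes in both. SIRPB1, an activating receptor that signals through an adaptor, measured 33.2 (A) and 30.1 (B) RPKM under the control hairpin, 66.1 and 63.6 under shRNA1, and 62.4 and 58.0 under shRNA2. It rose with both, its log2 fold change being 1.02 (SE 0.12, limma adjusted p = 0.00346) and 0.92 (SE 0.14, adjusted p = 0.00849). SIRPA measured 32.6 (A) and 36.3 (B) RPKM under the control hairpin, 49.3 and 42.1 under shRNA1, and 58.7 and 57.1 under shRNA2, and rose with shRNA2 (0.74, adjusted p = 0.0163). With shRNA1 it had 0.40 (adjusted p = 0.0712), and 0.47 without control B. SIRPB2 rose with shRNA1 (1.32, adjusted p = 0.00461) and had 0.35 with shRNA2 (adjusted p = 0.253). Its difference between the hairpins was -0.97 (adjusted p = 0.0109), a call lost without shRNA1 A (0.0715), shRNA1 B (0.123) or shRNA2 A (0.0711). CD47 had 0.29 and 0.22 and did not pass with either hairpin. SIRPG lay at 0.058 to 0.358 RPKM in the 6 libraries and was not tested. SIRP genes resemble each other in sequence, so reads may be shared between them, and an overlapping gene on the strand of SIRPD adds to this uncertainty.

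The relatives of LILRB4 are the leukocyte immunoglobulin-like receptors, of which the LILRB genes encode inhibitory and most LILRA genes activating forms, and LAIR1, an inhibitory collagen receptor of the same gene cluster. Of 11 genes listed, 6 were in the tables and 4 passed the filter. With shRNA1 2 rose and 0 fell, and with shRNA2 1 rose and 0 fell, with medians of 0.45 and 0.39. LAIR1 stood at 31.0 and 28.8 RPKM in the control and reached 48.7 and 45.4 RPKM with shRNA1, a rise of 0.65 (SE 0.12, limma adjusted p = 0.0133). LILRA1 rose by 0.68 with shRNA1 (adjusted p = 0.0178). Both calls were lost without shRNA1 A (0.0917 for LAIR1, 0.127 for LILRA1) and without shRNA1 B (0.0696 and 0.128). With shRNA2 LAIR1 had 0.43 (adjusted p = 0.0717; 0.0403 by limma-voom) and LILRA1 0.35 (adjusted p = 0.161). LILRA2 rose with shRNA2, from 25.5 and 19.3 RPKM to 49.9 and 42.8 RPKM (1.04, adjusted p = 0.0114), and had 0.17 with shRNA1 (adjusted p = 0.451). That value was 0.36 without control A and -0.03 without control B. LILRB1, the listed gene next to LILRB4, had 0.25 and -0.12 and did not pass with either hairpin. LILRB2, at 0.306 and 0.236 RPKM in the control, reached 1.26 and 1.17 RPKM with shRNA1 and 1.11 and 0.749 RPKM with shRNA2, under the filter. LILRA5 lay between 0.0694 and 0.547 RPKM. Reads may be shared between LILR genes for the same reason as between SIRP genes. In GENCODE 29, LILRB4 also overlaps MIR8061, VN1R105P and AC245036.3 on its own strand, none of them among the listed genes.

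**Figure D4:**
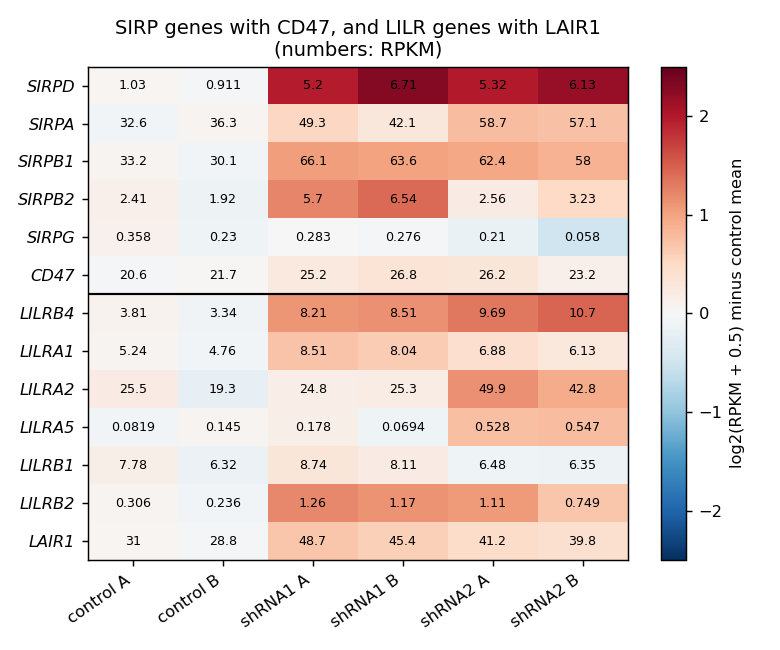
Rows are SIRP genes with CD47 and, under the line, LILR genes with LAIR1; columns are the 6 libraries. Colour is log2(RPKM + 0.5) minus the control mean of the gene, and the number in each cell is its RPKM. SIRPD (first row) has the largest difference of the upper block in both knockdown groups. In the lower block the largest differences belong to LILRB2 (under 1 RPKM in the control) and LILRB4 with shRNA1, and to LILRB4 and LILRA2 with shRNA2.

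Other inhibitory receptors of myeloid cells were counted beside LILRB4. Of 8 tested genes 6 rose and 1 fell with shRNA1, and 2 rose and 0 fell with shRNA2, with medians of 0.97 and 0.60. CD200R1, the receptor for CD200, measured 0.935 (A) and 0.651 (B) RPKM under the control hairpin, 4.23 and 6.01 under shRNA1, and 2.99 and 2.85 under shRNA2 (limma adjusted p = 0.00238 and 0.0067). Like SIRPD, it passed the filter only through the knockdown libraries. PECAM1, an adhesion receptor with inhibitory motifs, measured 9.18 (A) and 6.82 (B) RPKM under the control hairpin, 21.3 and 18.3 under shRNA1, and 22.7 and 16.6 under shRNA2 (adjusted p = 0.0053 and 0.00995). Of the adaptor-coupled activating receptors and their adaptors, 2 of 9 rose with shRNA1 and 4 of 10 with shRNA2, and 0 fell with either. TREM2, a lipid-sensing receptor of macrophages, rose from 4.40 and 3.83 RPKM to 14.8 and 14.6 RPKM with shRNA1 and to 22.2 and 14.2 RPKM with shRNA2 (adjusted p = 0.00157 and 0.00317). Of 11 phosphatases and kinases that act downstream of these receptors, 3 rose with shRNA1 and 0 fell. SYK, the kinase recruited by activating receptors, rose by 0.75 (adjusted p = 0.00723, and 0.0585 without shRNA1 B). With shRNA2 limma called 0 of the 11, while 3 were higher at an unadjusted p under 0.05 and limma-voom called 1 of them, SYK (adjusted p = 0.0444). PTPN6, the phosphatase recruited by inhibitory receptors, had 0.05 and 0.11 and did not pass. For the ligand and outputs of LILRB4 described in leukaemia, APOE stayed between 0.0803 and 0.523 RPKM. PLAUR, the urokinase receptor, fell with shRNA1 by 1.04 (adjusted p = 0.0156, and 0.0544 without shRNA1 B). ARG1 did not pass with either hairpin, with 22.8 RPKM in control A, 4.58 in control B and 2.07 to 4.75 in the knockdown libraries. Its log2 fold change with shRNA1 was -2.03 (adjusted p = 0.0527). Leaving out control A gave -0.93 (adjusted p = 0.000254), and leaving out control B gave -3.13 (adjusted p = 1.22e-10). It also passed without shRNA1 A (0.0345) or shRNA1 B (0.0498). With shRNA2 it was -1.29 (adjusted p = 0.176), and -2.38 without control B (1.47e-08).

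DEFB1 belongs with the antimicrobial proteins, and these did not move as 1 group. Of 14 tested genes 3 rose and 6 fell with shRNA1 and 4 rose and 1 fell with shRNA2, with medians of -0.75 and 0.71. LYZ rose with both (log2 fold change 2.77 and 2.40, limma adjusted p = 0.00104 and 0.0033). CTSG, a serine protease of neutrophil granules, measured 255 (A) and 229 (B) RPKM under the control hairpin, 392 and 370 under shRNA1, and 611 and 491 under shRNA2 (adjusted p = 0.0194 and 0.0113; the call with shRNA1 was lost without shRNA1 A, 0.175, and without shRNA1 B, 0.174). BPI, a granule protein that binds bacterial endotoxin, fell from 34.7 and 20.5 RPKM to 7.12 and 8.19 RPKM with shRNA1 and to 13.9 and 13 RPKM with shRNA2 (adjusted p = 0.00552 and 0.0344). DEFA4, a neutrophil alpha-defensin and the listed gene next to DEFB1 on its other side from AGPAT5 in GENCODE 29, stood at 41.5 and 25.6 RPKM in the control and reached 4.21 and 4.11 RPKM with shRNA1 (-2.83, adjusted p = 0.00157). With shRNA2 its change was -0.34 (adjusted p = 0.382). AGPAT5, a lysophospholipid acyltransferase, had 0.15 and -0.34 and did not pass. These 2 neighbours were looked up after the tables had been examined, as were those of the other members.

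The neighbours of FGL2 and ECM1 did not pass with either hairpin. For FGL2 they were PMS2P9 (0.22 and 0.37) and GSAP (-0.02 and 0.11). For ECM1 they were TARS2, a mitochondrial threonyl-tRNA synthetase (-0.13 and -0.26), and ADAMTSL4, which was under the filter with shRNA1 and had 0.58 with shRNA2. The neighbours of LILRB4 were LILRB1 and FCAR, the receptor for IgA (0.28 and 0.49), which did not pass either. Those of SIRPD were SIRPB2 and SIRPB1, given above.

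FGL2 was set beside genes with a fibrinogen-like domain, its Fc receptors and the clotting system. Of 4 tested genes of the first kind 1 rose and 2 fell with shRNA1, and 0 rose and 1 fell with shRNA2. MFAP4, a matrix protein with such a domain, stood at 1.45 and 3.37 RPKM in the control and at 0.203 to 0.371 RPKM in the knockdown libraries (limma adjusted p = 0.0134 and 0.0111). MFAP4 passed the filter only through the control libraries, where it was high, so its p-values and its place in these counts rest on the filter. The reported Fc receptors of FGL2 were nearly silent, FCGR2B at 0 to 0.285 RPKM and FCGR3A at 0.0484 to 0.357 RPKM. Prothrombin itself (F2) lay at 0.0248 to 0.294 RPKM. Of 11 coagulation and fibrinolysis genes 6 rose and 2 fell with shRNA1 and 2 rose and 2 fell with shRNA2, with medians of 0.46 and -0.11. THBD, thrombomodulin, which turns thrombin into an anticoagulant, rose from 5.74 and 6.32 RPKM to 18.2 and 12.6 RPKM with shRNA1 and to 16.2 and 12.4 RPKM with shRNA2 (adjusted p = 0.00723 and 0.00714). S100A10, a plasminogen receptor subunit, measured 77.1 (A) and 38.3 (B) RPKM under the control hairpin, 18.9 and 17.5 under shRNA1, and 15.5 and 11.1 under shRNA2 (adjusted p = 0.0142 and 0.00849; 0.0648 with shRNA1 under robust empirical Bayes).

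ECM1 was set beside its binding partners and other matrix genes. Of the partners, MMP9, a gelatinase that ECM1 inhibits, and PLSCR1 could be tested. MMP9 fell with shRNA1 by 1.34 (limma adjusted p = 0.0393, and 0.106 without shRNA1 B) and had 0.57 with shRNA2 (adjusted p = 0.295; 1.15 and 0.00196 without control A; -0.00 without control B), with 5.29 and 2.11 RPKM in control A and B. HSPG2, which encodes perlecan, lay at 0.464 and 0.461 RPKM in the control, 1.32 and 1.55 under shRNA1, and 0.746 and 0.76 under shRNA2. Of the other matrix genes 5 of 11 rose and 3 fell with shRNA1, and 4 of 10 rose and 0 fell with shRNA2, with medians of 0.52 and 0.32. These counts include MMP2 with shRNA1 (mean 0.326 RPKM in the control, 2.45 with shRNA1) and MMP8 with shRNA2 (0.484 and 3.33), which passed the filter only through the group where they were high. TGFBI, a matrix protein induced by TGF-beta, rose from 2.97 and 2.74 RPKM to 6.93 and 6.10 RPKM with shRNA1 and to 7.94 and 5.80 RPKM with shRNA2 (adjusted p = 0.006 and 0.0108). TIMP1, an inhibitor of matrix proteases, rose with shRNA2 by 1.36 (adjusted p = 0.00806). With shRNA1 it had 0.57 (adjusted p = 0.0696, and 0.0406 by limma-voom), and 0.83 without control A.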

How the data were processed

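Total RNA of OCI-AML2 was sequenced in 6 libraries, 2 per group. The submitters' processing notes name build hg19, edgeR 3.8.6, DESeq 1.18.0, HTSeq 0.6.1p2, TopHat2 2.0.11 and Trim Galore 0.4.0, with no role given. The authors deposited a table for each hairpin, which holds, per the file headers, the RPKM of 4 libraries, the log2 fold change, the mean log2 CPM, the score of a likelihood-ratio test, its p-value and an adjusted p-value. The sources used here give neither a gene filter nor a strand setting.

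Table titles and letters tied each column to a library, and 0 columns were unmatched. Gene IDs restored 21 symbols that had become dates, and 2 repeated genes were dropped, leaving 13002 genes. Whole reads were recovered from the RPKM steps for 12997 genes (99.96%, within 0.05 reads).

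Genes whose RPKM averaged at least 1 in the libraries fitted were tested as log2(RPKM + 0.5) with limma 3.58.1 (R 4.3.3; variance trend, two-sided, Benjamini-Hochberg over all genes, threshold 0.05). Each hairpin was fitted with the control in 4 libraries, and shRNA2 against shRNA1 in all 6. The script was tested on simulated data. Alternatives changed the pseudocount, filter, normalization, variance model, libraries and block. The members and gene lists were chosen with earlier results of these data known. The text draws its named genes from the members, the SIRP and LILR genes in the tables, up to 4 genes a list by the larger of their 2 p-values against the control (smallest first), and the 3 genes most similar to each member. DEFA4, PTPN6, APOE, HSPG2, F2, FCGR2B, FCGR3A, MMP2, MMP8, MPO and the genes next to the members were added after their values were seen. The list of interferon gamma response genes is not reported here.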

Additional observations from a re-analysis of the deposited data

Results flagged for a closer look

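In the main fit limma called 0 of the 5 members between the hairpins, but shRNA2 against shRNA1 passed its threshold for TAZ and for several genes set beside the members. TAZ had a log2 difference (shRNA2 minus shRNA1) of -1.0. Higher with shRNA2 were MMP9 (1.91), CLEC5A (1.52), a myeloid C-type lectin, FCN1 (1.46), a ficolin of monocytes, SERPINB2 (1.16), a plasminogen activator inhibitor, OSCAR (0.93), a collagen receptor, LILRA2 (0.87), TIMP1 (0.80) and PLSCR1 (0.65). Lower with shRNA2 were F2R (-1.45), a thrombin receptor, FIBCD1 (-1.04), SIRPB2 (-0.97), SPARC (-0.79), a matrix glycoprotein, SIGLEC14 (-0.66) and SIGLEC10 (-0.58). Adjusted p-values from limma lay between 0.000905 and 0.0428. Without shRNA1 A (0.0601 to 0.169) and without shRNA1 B (0.084 to 0.322) the adjusted p missed the threshold for TAZ, LILRA2, MMP9, OSCAR, PLSCR1, SIGLEC10, SIGLEC14, SIRPB2, SPARC and TIMP1. Without shRNA2 A it did so for LILRA2, MMP9, PLSCR1, SIGLEC10, SIGLEC14, SIRPB2 and TIMP1 (0.0704 to 0.157), and without shRNA2 B for OSCAR, PLSCR1, SIGLEC10, SIGLEC14, SPARC and TIMP1 (0.0504 to 0.141). With all libraries kept, SIGLEC10 (0.0502) and SIGLEC14 (0.0523) also missed it under limma-voom. With 2 libraries per group, no single library could be tested as standing apart.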

How the results depend on the processing

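Leaving out 1 library changed the number of genes called from 1971 to between 461 (without shRNA1 B) and 4397 (without control B) for shRNA1, from 1676 to between 823 (without shRNA2 B) and 2010 (without control B) for shRNA2, and from 1160 to between 155 (without shRNA1 B) and 1622 (without control B) for shRNA2 against shRNA1. A group left with 1 library gives no spread, so such counts and p-values differ in meaning from those of the full fits. With all 6 libraries in the fit, 2584 genes were called for shRNA2. With the letters A and B as a replicate block, 3780, 4170 and 2396 genes were called in these 3 comparisons, and DEFB1 was called lower with shRNA2 than with shRNA1 (adjusted p = 0.0103). The labels do not say that a letter marks a shared culture or day. The differences between A and B correlated across genes at 0.26 (control and shRNA1), 0.423 (control and shRNA2) and 0.367 (shRNA1 and shRNA2), and 2 letters are too few to show pairing. The count of genes with all 4 knockdown libraries above both controls lay between 1627 and 2577 with other filters and under quantile normalization.

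Over the alternatives, log2 folds of the members against the control, whose sign the choice of members largely fixes, lay between 1.73 and 3.08 for DEFB1, 1.56 and 2.60 for FGL2, 1.77 and 2.61 for SIRPD, 1.63 and 2.29 for ECM1 and 1.04 and 1.58 for LILRB4. Signs turned when 1 library was left out: SIRPD between the hairpins (-0.22 to 0.13; 0.05 without shRNA2 A, 0.13 without shRNA1 B), ANGPTL6 with shRNA1 (-0.21 to 0.08; 0.04 without shRNA1 B, 0.08 without control A), LILRA2 (-0.03 to 0.36) and WARS (-0.87 to 0.15) with shRNA1, and LILRB1 (-0.26 to 0.02) and MMP9 (-0.00 to 1.15) with shRNA2. The extremes of the last 4 genes came without control A or control B. The cause was not tested. Of the 15 pairs of a member and a similar gene, 12 were kept with a pseudocount of 0.1 and 13 with 1, alternatives chosen after seeing the data. Depth limits SIRPD most, with 15 reads in each control library.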
